A study of Mus musculus with 18 samples.

Results

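Cytokine receptor chains were examined in CD4+ T cells of naive and tolerized mice. The set comprised 10 named genes, Il2rg, Il2rb, Il6st, Il12rb1, Il4ra, Il21r, Il6ra, Il12rb2, Il10ra and Ifngr1, out of the 37991 genes counted in each library. They were chosen by name as chains of receptors for interleukins and interferon-gamma, and all 10 were among the 17240 genes that passed the filter on low counts.

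The cells came from the spleen of Tg4-H2u mice, male and female and 6 to 12 weeks old, which are transgenic for a TCR that recognises a peptide of myelin basic protein, and they were enriched for CD4 T cells with magnetic beads. Tolerized mice (T) had received the 4Y form of the peptide under the skin in 7 escalating doses from 0.08 to 80 µg at intervals of 3 to 4 days, and naive mice (N) PBS on the same schedule. Cells were taken 2 h after a last injection of PBS (N0 and T0) or of 80 µg peptide (NAg and TAg), or were cultured for 2 h with 20 ng/ml PMA and 2 µM calcium ionophore A23187 (NPI and TPI), and each of the 6 groups had 3 libraries. Peptide reaches the cells through the TCR in the animal, whereas PMA and ionophore bypass it. Responses through the receptor can thus be set beside responses that bypass it. PI groups also differ from resting and Ag groups by the time in culture, and the part of the culture cannot be told apart from that of the stimulus.

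Type I cytokine receptors are assembled from a chain that binds the cytokine and a signalling chain that is often shared between receptors. Il2rg encodes the common gamma chain of the receptors for IL-2, IL-4, IL-7, IL-9, IL-15 and IL-21, Il2rb the beta chain shared by IL-2 and IL-15, Il6st the gp130 chain of the IL-6 family and of IL-27, and Il12rb1 the chain common to IL-12 and IL-23. Il10ra and Ifngr1 are ligand-binding chains of type II receptors for IL-10 and interferon-gamma. The chains bind Janus kinases, which phosphorylate STAT proteins once the cytokine has joined the chains, and on CD4 T cells the set of chains decides which cytokines a cell can answer.

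Total counts per library ranged from 10758571 to 24119489, with a median of 12268936. The 8 T cell marker genes summed to 19804 to 38666 normalized counts in all libraries, and Cd4 was detected in each. Genes of other cells were present, and some of their lists moved with tolerization or with PI. All 10 neutrophil markers were called higher in T0 than in N0, and their sum rose from a range of 76.4 to 187 in N0 to one of 1820.3 to 3198 in T0. Corresponding ranges were 146 to 423 in NAg against 2413 to 4435 in TAg, and 64.5 to 173 in NPI against 398 to 676 in TPI. Macrophage and monocyte markers summed to 631 to 871 in N0 and 1382 to 1767 in T0, with 1 of 12 called higher and 1 lower. Their median log2 fold change in T0:N0 was -0.90, below 0 although the sum was higher, so the sum does not stand for the list. In TAg 8 of these 12 were called lower than in NAg and 1 higher. Erythroid markers summed to 44.9 to 213 in N0 and 261 to 2218 in T0, with 2 of 8 called higher. The highest value, 2218, was that of T0 replicate 1, beside 261 and 329 in the other T0 libraries, and this library also had the highest B cell sum (3001, beside 1102 and 604). No marker of B cells, dendritic cells, NK cells or platelets and megakaryocytes was called in T0:N0. The 2 CD8 T cell markers summed to 210.2 to 259.5 in N0 and 81.5 to 125.6 in T0, with 1 called lower. In NPI:N0, 6 of 10 neutrophil markers were called lower and 2 higher, and in TPI:T0 8 lower (median log2 fold changes -4.53 and -4.76). Of the 12 macrophage and monocyte markers, 8 were called lower in NPI:N0, and 5 lower and 1 higher in TPI:T0. All 4 platelet and megakaryocyte markers were called lower in both, beside 32.7% and 36.3% of all tested genes. Their part in the PI responses was not tested beyond fits with marker scores. No gene of these lists was at 0 in all libraries. In such bulk samples, fewer cells of a type and less RNA per cell cannot be told apart. In N0 replicate 1 the B cell, NK cell and dendritic cell markers summed to the highest values of their group (2020, 956 and 849.9), as did macrophage and monocyte markers in NAg replicate 1 (2322) and neutrophil and erythroid markers in TAg replicate 3 (4435 and 1409.8). Summed Y-linked transcripts were at most 14.9 in N0 and NAg, at least 5824 in NPI and TPI, and high in 2 of 3 T0 and 1 of 3 TAg libraries. The sex of the mice thus varied with the stimulus and, at rest and after Ag, between naive and tolerized groups. In NPI:N0 it differed in every library, so sex and stimulus cannot be told apart from these 2 groups alone.

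Levels are given as normalized counts, that is counts scaled to a common library size with edgeR's TMM factors. Log2 fold changes are given with their SE, and every adjusted p is a Benjamini-Hochberg value from edgeR's quasi-likelihood test over all tested genes, with a gene called at a value under 0.05. The plot of normalized counts by library shows all members.

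**Figure D1:**
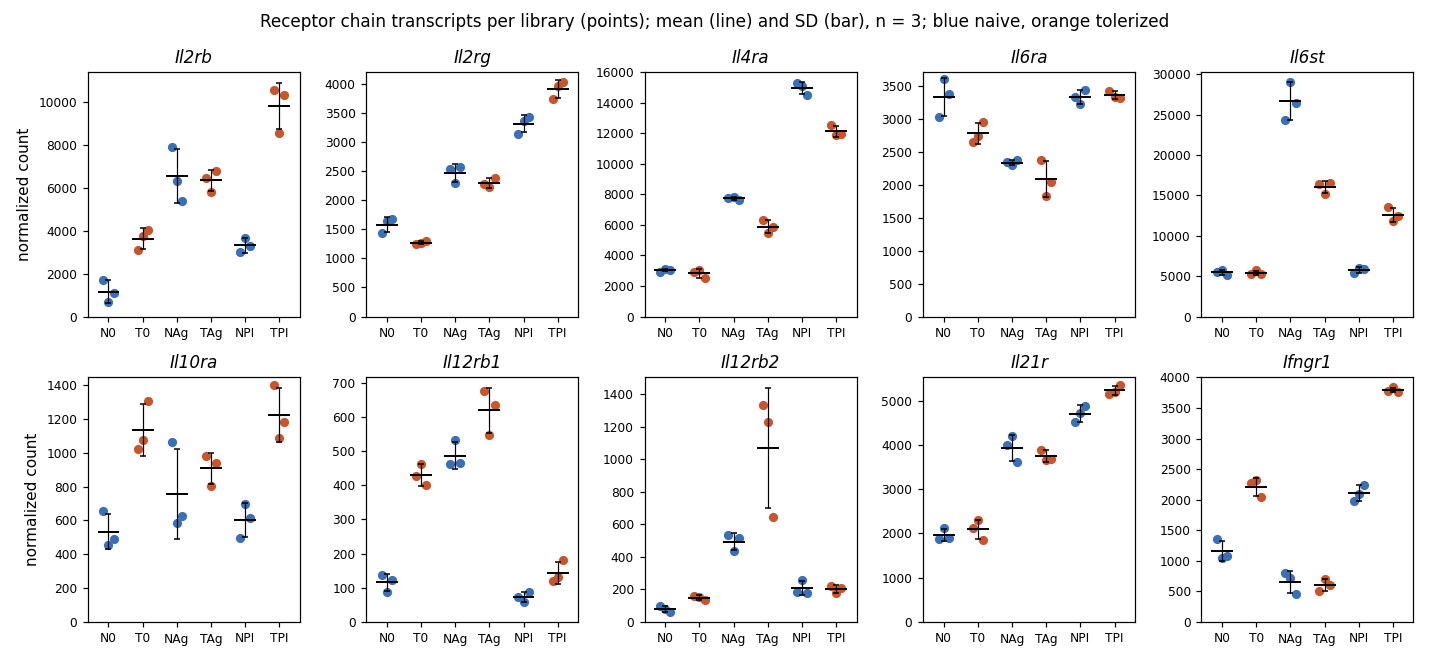
Normalized count (linear axis from 0) of each receptor chain in the 3 libraries of each group (points), with mean (line) and SD (bar), naive libraries in blue and tolerized ones in orange. Il6st was highest in NAg (24402 to 29109.9), Il4ra in NPI (14514 to 15277), Il12rb2 in TAg (646 to 1329.9) and Ifngr1 in TPI (3768 to 3836).

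In resting cells, tolerization went with more transcript of 5 chains, those of the receptors for IL-12, IL-2 and IL-15, IL-10 and interferon-gamma. Il12rb1, Il2rb, Il10ra, Il12rb2 and Ifngr1 were called higher in T0 than in N0, by 1.90- to 3.71-fold, beside 8.42% of all tested genes called higher. Il2rg and Il6ra were called lower by 1.24- and 1.2-fold, beside 12% of all tested genes, and Il4ra, Il6st and Il21r were not called. The median log2 fold change was 0.51 over the members and -0.08 over all tested genes. Fewer members were called after Ag. Il12rb2 was called higher in TAg than in NAg, beside 20.9% of all tested genes, Il6st and Il4ra lower, beside 18.5%, and the other 7 were not called (median log2 fold change -0.09 over the members and 0.01 over all tested genes). After PI, 6 members were called higher in TPI than in NPI, beside 18.2% of all tested genes, and Il4ra alone was called lower, beside 19.7% (medians 0.54 and -0.04). These 3 comparisons use different libraries.

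**Figure D2:**
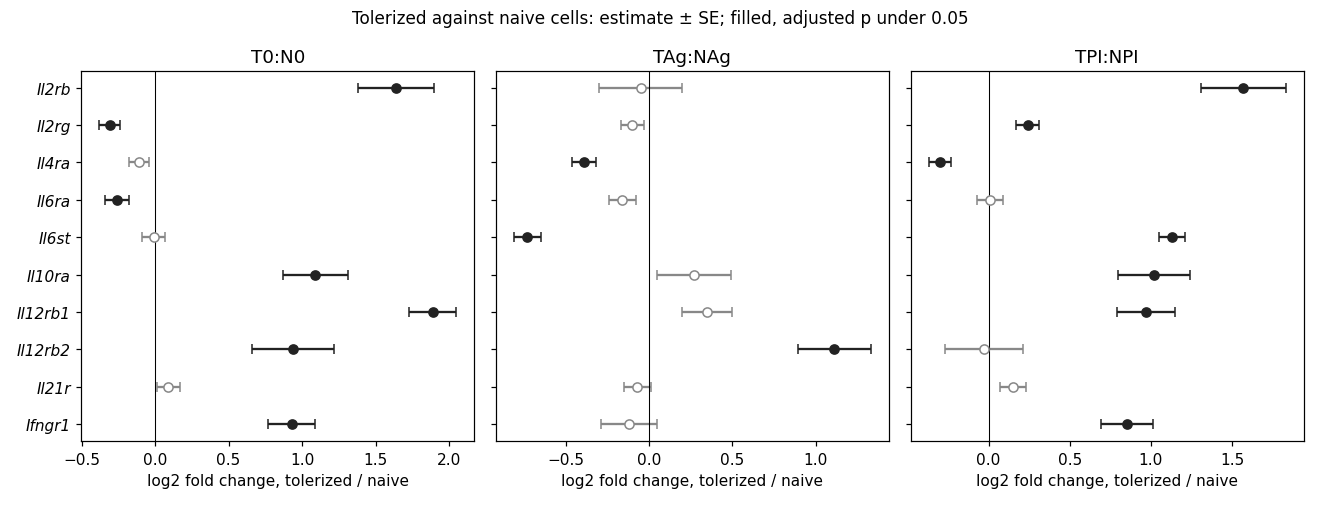
Log2 fold change of each receptor chain in tolerized over naive cells (horizontal axis) at rest, after Ag and after PI, with SE; filled points have an adjusted p under 0.05. Il2rb lies at 1.64 ± 0.26 at rest, -0.05 ± 0.25 after Ag and 1.57 ± 0.26 after PI, and Il6st at -0.01 ± 0.08, -0.73 ± 0.08 and 1.13 ± 0.08.

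Most calls at rest were lost when scores of the markers of other cells were added to the model. Erythroid and myeloid marker scores, which differ between N0 and T0 themselves, served as covariates. Each score was a mean of log2 levels over its markers, not the sums given above. The myeloid score pooled neutrophil markers with macrophage and monocyte markers, whose median log2 fold changes in T0:N0 were 4.34 and -0.90. With these scores in the model, the SEs were larger and Il12rb1 was the only member still called in T0:N0 (2.12 ± 0.37, adjusted p = 0.0139). Under that fit Il2rb was at 1.09 ± 0.63 (adjusted p = 0.64), Ifngr1 at 0.49 ± 0.41 (0.77 as adjusted p), Il12rb2 at 0.87 ± 0.59 (0.703) and Il10ra at -0.06 ± 0.39 (0.992). In TPI:NPI, 6 of the 7 calls remained under that fit, among them Il6st (1.21 ± 0.09) and Il2rb (1.41 ± 0.31). In TAg:NAg the call of Il6st remained (-0.51 ± 0.13, adjusted p = 0.00861), and those of Il12rb2 (1.0 ± 0.42, adjusted p = 0.15) and Il4ra (-0.34 ± 0.13, adjusted p = 0.0801) did not.

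Ag raised most of the receptor chains in both kinds of cells within 2 h. In NAg:N0, 7 members were called higher, beside 32.1% of all tested genes, and Il6ra and Ifngr1 lower, beside 33.4%, with a median log2 fold change of 1.18 over the members and 0.00 over all tested genes. The same counts were found in TAg:T0, with 7 called higher beside 29.9% of all tested genes and 2 called lower beside 29.8% (medians 0.82 and -0.05). Il10ra was not called in either. After PI, 6 members were called higher in naive cells, beside 28.6% of all tested genes, and Il12rb1 lower, beside 32.7% (medians 0.96 and -0.06). In tolerized cells 7 were called higher, beside 32% of all tested genes, and again Il12rb1 lower, beside 36.3% (medians 1.0 and -0.10). The Ag and PI responses of one kind of cell share the resting libraries.

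**Figure D3:**
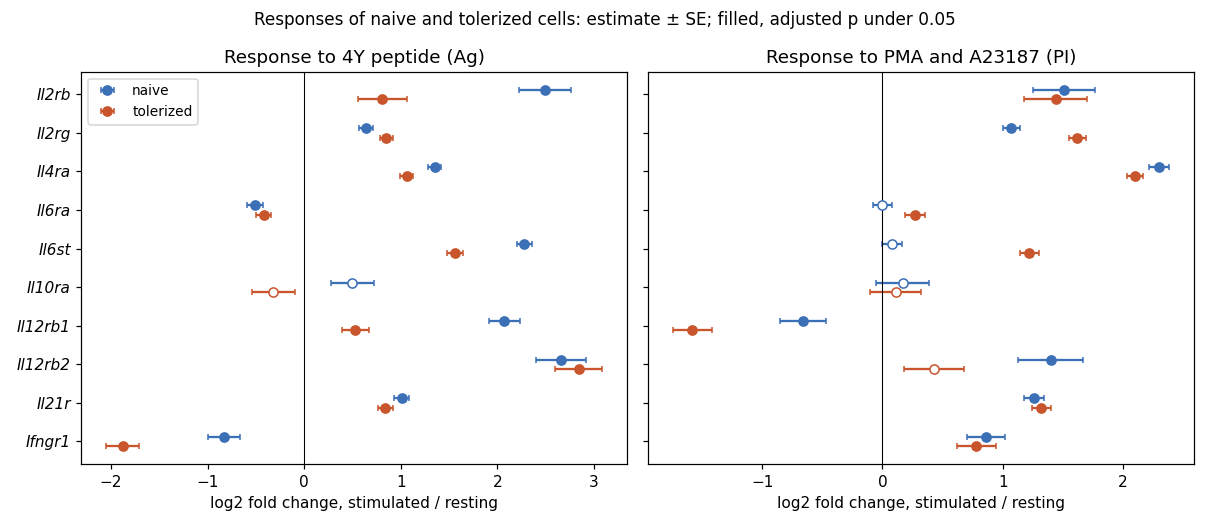
Log2 fold change of stimulated over resting cells (horizontal axis) with SE, for naive (blue) and tolerized (orange) cells; filled points have an adjusted p under 0.05. Il12rb1 lies right of 0 after Ag (2.07 ± 0.16 and 0.53 ± 0.14) and left of it after PI (-0.66 ± 0.19 and -1.58 ± 0.16), and Ifngr1 the other way round.

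The difference between both kinds of cells in response was tested as an interaction. The log2 response to Ag was called lower in tolerized cells for 5 members, Il2rb, Il12rb1, Ifngr1, Il6st and Il4ra, beside 7.09% of all tested genes. It was called higher for 0 members, beside 14.6%. For Ifngr1 the lower value was a larger fall (-1.88 ± 0.17 in TAg:T0 and -0.83 ± 0.17 in NAg:N0), and for the others a smaller rise. At an unadjusted p under 0.05 edgeR put 1 member higher, Il2rg (0.21 ± 0.10, adjusted p = 0.141), and DESeq2 did not call it (0.17 ± 0.10, adjusted p = 0.281). Il10ra was not called by edgeR (-0.82 ± 0.31, adjusted p = 0.0812) and was called lower by DESeq2 (-0.86 ± 0.26, adjusted p = 0.00732). The log2 response to PI was called higher in tolerized cells for Il6st and Il2rg, beside 12.7% of all tested genes, and lower for Il12rb1, beside 7.52%. For Il12rb1 this was a larger fall (-1.58 ± 0.16 in TPI:T0 and -0.66 ± 0.19 in NPI:N0). When the gap between tolerized and naive cells after PI was set against that after Ag, it was called higher after PI for Il6st, Il2rb, Ifngr1, Il12rb1 and Il2rg, beside 17.2% of all tested genes, and lower for Il12rb2, beside 20%.

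Among the shared signalling chains, Il2rb was higher in tolerized cells at rest and rose with each stimulus. Its normalized counts were 1721, 666 and 1104 in N0 and 3094, 3771 and 4031 in T0, and each T0 library was above each N0 library (log2 fold change 1.64 ± 0.26, adjusted p = 0.000874). In NAg they were 7919, 6342 and 5407, and in TAg 6459, 5797 and 6786. After Ag the groups overlapped (log2 fold change -0.05 ± 0.25, adjusted p = 0.911). PI gave 2990.5, 3670.5 and 3288 in NPI and 10548, 8583 and 10336 in TPI, again without overlap (log2 fold change 1.57 ± 0.26, adjusted p = 0.000321). Naive cells thus rose 5.63-fold with Ag (log2 fold change 2.49 ± 0.27, adjusted p = 1.92e-06) and tolerized cells 1.75-fold (log2 fold change 0.81 ± 0.25, adjusted p = 0.0148), a difference in response of -1.69 ± 0.36, adjusted p = 0.0049, whereas the PI responses of 1.51 ± 0.26 and 1.44 ± 0.26 differed by -0.07 ± 0.36, adjusted p = 0.927. From the highest mean to the lowest the order was TPI, NAg, TAg, T0, NPI and N0, and the ranges of NAg and TAg and those of T0 and NPI overlapped. N0 replicate 1, the library with the highest NK and B cell marker sums of its group, also had the highest Il2rb count there, and without it the log2 fold change in T0:N0 was 2.03 ± 0.23. With only N0 and T0 in the model, the value was 1.71 ± 0.39 with an adjusted p of 0.0589. With marker scores the value in T0:N0 was 1.09 ± 0.63 (adjusted p = 0.64). The call in TAg:T0 was lost without T0 replicate 1, the library with the highest erythroid and B cell sums of its group (0.67 ± 0.29, adjusted p = 0.0738), and that in TPI:T0 with marker scores (2.17 ± 0.81, adjusted p = 0.0738).

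The alpha chain Il2ra, which with both signalling chains makes the high-affinity IL-2 receptor, responded far more than Il2rb. Il2ra rose with Ag from 416, 299 and 406 to 24242, 26689.9 and 23344 in naive cells (log2 fold change 6.05 ± 0.26, adjusted p = 4.02e-11) and from 695, 963 and 420.1 to 23633, 22782 and 21269 in tolerized cells (log2 fold change 5.02 ± 0.25, adjusted p = 2.56e-10). After PI it was 3946, 5089 and 4462 in NPI and 13076, 11383 and 11733 in TPI (log2 fold change 1.42 ± 0.21, adjusted p = 0.000112), so both chains were higher in TPI than in NPI. Per kilobase of exon, the scale on which genes can be compared, the ratio of Il2rb to Il2ra counts was 4.08 to 7.56 in N0 and 7.16 to 17.5 in T0. It was 0.423 to 0.597 in NAg and 0.465 to 0.583 in TAg, so transcripts of the alpha chain outnumbered those of the beta chain in all 6 libraries after Ag and in none of the other 12.

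Il6st, which encodes gp130, rose with Ag in both kinds of cells and with PI in tolerized cells. No difference was detected at rest, with 5514, 5785 and 5122 in N0 and 5249.6, 5722 and 5305 in T0 (log2 fold change -0.01 ± 0.08, adjusted p = 0.941). Ag raised it to 24402, 29109.9 and 26484 in naive cells, a 4.87-fold change (log2 fold change 2.28 ± 0.08, adjusted p = 8.84e-18). In tolerized cells it reached 16414, 15186 and 16535 (log2 fold change 1.56 ± 0.08, adjusted p = 1.28e-14), below every NAg library (log2 fold change -0.73 ± 0.08, adjusted p = 9.81e-08). After PI the order was the opposite. NPI libraries stayed at 5399, 5976 and 5936, within reach of N0 (log2 fold change 0.08 ± 0.08, adjusted p = 0.411), while TPI libraries had 13549, 11894 and 12395 (log2 fold change 1.22 ± 0.08, adjusted p = 1.36e-12). The fold change with PI was 2.21 times as high in tolerized as in naive cells (1.14 ± 0.11 on the log2 scale, adjusted p = 1.07e-07). The Ag response was smaller in tolerized cells (-0.72 ± 0.11, adjusted p = 3.81e-05). The gap after PI exceeded that after Ag by 1.86 ± 0.11, adjusted p = 5.78e-12, the largest such difference among the members. In the order of group means, NAg, TAg, TPI, NPI, N0 and T0, ranges overlapped only between NPI and N0 and between N0 and T0.

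Il6ra, which binds IL-6 and joins gp130, had the smallest span of all members. Its lowest and highest library values were 3029 to 3601 in N0, 2646 to 2955 in T0, 2293 to 2372 in NAg, 1835 to 2379 in TAg, 3227 to 3434 in NPI and 3316 to 3429 in TPI. It fell with Ag in naive (log2 fold change -0.51 ± 0.08, adjusted p = 3.64e-06) and in tolerized cells (log2 fold change -0.42 ± 0.08, adjusted p = 7.36e-05), opposite to its partner. TAg:NAg was not called (-0.16 ± 0.08, adjusted p = 0.11) but passed with DESeq2 (-0.20 ± 0.08, adjusted p = 0.0439) and without TAg replicate 1 (-0.27 ± 0.08, adjusted p = 0.00906). The ratio of Il6st to Il6ra transcripts per kilobase was 0.975 to 1.17 in N0 and 1.15 to 1.34 in T0, and rose to 6.7 to 8.15 in NAg and 4.43 to 5.31 in TAg. After PI the ratio was 1.04 to 1.19 in NPI, which overlapped N0, and 2.29 to 2.54 in TPI, above every NPI library. The calls of Il6ra in T0:N0 (-0.26 ± 0.08, adjusted p = 0.0207) and in TPI:T0 (0.27 ± 0.08, adjusted p = 0.00389) did not hold in all fits. The former was lost in the model of both groups alone (-0.19 ± 0.06, adjusted p = 0.079), with the Y-linked covariate (-0.19 ± 0.09, adjusted p = 0.216), with marker scores (-0.23 ± 0.19, adjusted p = 0.76) and without N0 replicate 2 or 3 or T0 replicate 1 or 2 (-0.21 to -0.26, adjusted p between 0.0558 and 0.106), and the latter with marker scores (0.25 ± 0.26, adjusted p = 0.524). Il27ra, which pairs with gp130 in the IL-27 receptor, fell with Ag in naive cells (log2 fold change -0.72 ± 0.07, adjusted p = 1.49e-09) and was higher in TAg than in NAg (log2 fold change 0.47 ± 0.07, adjusted p = 8.99e-06), the reverse of Il6st.

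Il12rb1 had the largest change with tolerization at rest. Counts were 138, 87.7 and 122 in N0 and 427, 464 and 401 in T0 (log2 fold change 1.89 ± 0.16, adjusted p = 1.54e-07). Ag brought naive cells to 461, 532 and 465, next to the T0 level, and tolerized cells to 676, 547 and 636. The response was 4.19-fold in naive cells (log2 fold change 2.07 ± 0.16, adjusted p = 2.13e-10) and 1.44-fold in tolerized cells (log2 fold change 0.53 ± 0.14, adjusted p = 0.00345), a difference of -1.54 ± 0.22, adjusted p = 2.68e-05. TAg and NAg libraries did not overlap, but the difference between them was not called (0.35 ± 0.15, adjusted p = 0.0619), except in the fit of both groups alone (0.36 ± 0.10, adjusted p = 0.0118) and without TAg replicate 2 (0.43 ± 0.16, adjusted p = 0.0405). With PI the transcript fell instead, to 72.8, 58.3 and 87.4 in NPI (log2 fold change -0.66 ± 0.19, adjusted p = 0.00418) and to 119, 131 and 181 in TPI (log2 fold change -1.58 ± 0.16, adjusted p = 1.07e-08). The fall was larger in tolerized cells (-0.92 ± 0.24, adjusted p = 0.00952), and TPI remained above NPI (log2 fold change 0.97 ± 0.18, adjusted p = 0.000181). The order of means was TAg, NAg, T0, TPI, N0 and NPI, with overlap between NAg and T0 and between TPI and N0. The gap between both kinds of cells was 0.62 ± 0.23, adjusted p = 0.0398 higher after PI than after Ag, a call lost in 6 of the 12 fits without 1 library (NAg replicate 2, TAg replicate 2 or 3, NPI replicate 1 or 2 or TPI replicate 3, 0.41 to 0.64) and with marker scores (0.47 ± 0.27, adjusted p = 0.212).

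Its partner Il12rb2, the signalling chain of the IL-12 receptor, spanned 13.69-fold between group means, the widest range among the members. It was lowest at rest, at 94.1, 78.3 and 61.5 in N0 and 160.1, 155 and 132 in T0 (log2 fold change 0.94 ± 0.28, adjusted p = 0.0292). That call was lost without the filter on low counts (0.94 ± 0.29, adjusted p = 0.0551) and with marker scores (0.87 ± 0.59, adjusted p = 0.703). It was also lost without N0 replicate 2 or 3 or T0 replicate 1 or 2 (0.78 to 0.93, adjusted p between 0.0805 and 0.116). Ag raised it to 531, 436 and 514 in NAg (log2 fold change 2.66 ± 0.26, adjusted p = 3.3e-07) and 1329.9, 1226 and 646 in TAg (log2 fold change 2.84 ± 0.24, adjusted p = 7.3e-08), the largest Ag response among the members in both kinds of cells. TAg replicate 3, the library with the highest neutrophil and erythroid sums of its group, had the lowest count of its group but still exceeded all NAg libraries, and TAg:NAg was 1.11 ± 0.22, adjusted p = 0.00113 with it and 1.37 ± 0.14 without it. Responses to Ag did not differ by the test (0.18 ± 0.36, adjusted p = 0.797). PI gave 186, 255 and 177 in NPI (log2 fold change 1.40 ± 0.27, adjusted p = 0.000438) and 221, 176 and 206 in TPI, where the rise from T0 was not called (0.43 ± 0.25, adjusted p = 0.138) but passed in the fit of both groups alone (0.45 ± 0.13, adjusted p = 0.00609) and with the Y-linked covariate (0.56 ± 0.24, adjusted p = 0.0499). The PI response of tolerized against naive cells was not called (-0.96 ± 0.37, adjusted p = 0.0892) but was called lower with a replicate block (-0.96 ± 0.32, adjusted p = 0.0499), with DESeq2 (adjusted p = 0.0165), with the 4 groups alone (-1.05 ± 0.24, adjusted p = 0.00436) and with the Y-linked covariate (-1.26 ± 0.38, adjusted p = 0.0352). In the order TAg, NAg, NPI, TPI, T0 and N0, only NPI and TPI overlapped. The gap after PI against that after Ag was -1.14 ± 0.33, adjusted p = 0.0137, and -0.96 ± 0.41 with an adjusted p of 0.106 when marker scores were added.

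Per kilobase, Il12rb1 transcripts exceeded those of Il12rb2 in resting cells, with ratios of 1.48 to 2.62 in N0 and 3.52 to 4 in T0. The ratio was 1.15 to 1.61 in NAg and 0.59 to 1.3 in TAg, and 0.302 to 0.651 in NPI and 0.711 to 1.16 in TPI. In T0 it was thus above every other library. Il23r, which pairs with Il12rb1 in the IL-23 receptor, rose with PI, when Il12rb1 fell. Its counts went from 31.7, 12.5 and 28.8 in N0 to 263, 374 and 335 in NPI (log2 fold change 3.72 ± 0.46, adjusted p = 7.19e-06) and from 19.5, 49.5 and 20.1 in T0 to 157, 218 and 383 in TPI (log2 fold change 3.08 ± 0.44, adjusted p = 2.5e-05), and it was not called after Ag (0.88 ± 0.54, adjusted p = 0.173, and 0.13 ± 0.54, adjusted p = 0.858).

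**Figure D4:**
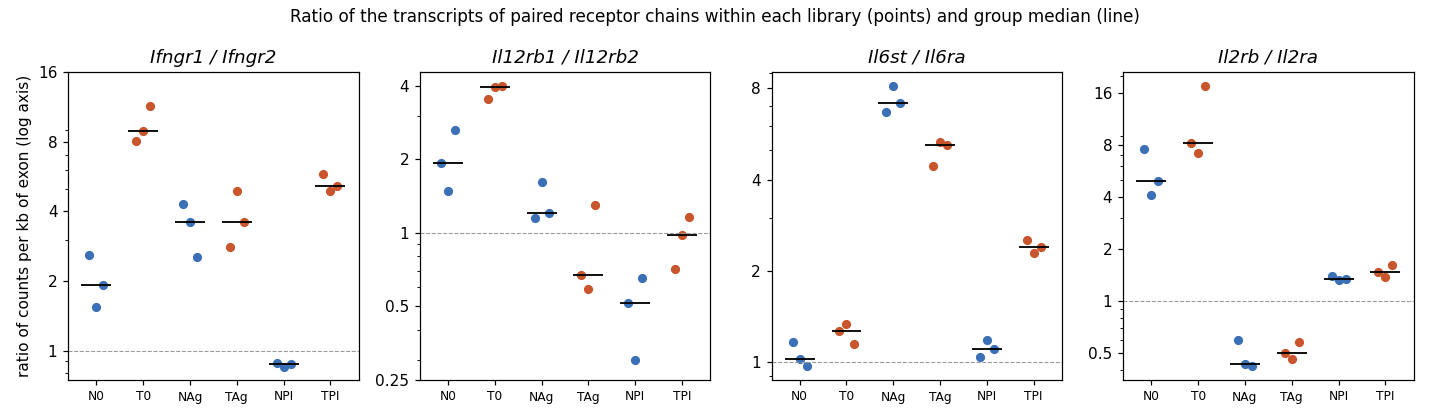
Ratio of the transcripts of paired receptor chains per kilobase of exon (log axis, dashed line at equal levels) in each library (points) with the group median (line), naive in blue and tolerized in orange. Ifngr1 to Ifngr2 lies at 0.852 to 0.885 in NPI and 4.89 to 5.79 in TPI, and Il6st to Il6ra at 6.7 to 8.15 in NAg and 0.975 to 1.17 in N0.

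Il2rg, Il4ra and Il21r varied together more than any other members. Over the 18 libraries, which share their 6 groups, Pearson's r of log2 normalized counts was 0.96 for Il2rg with Il4ra, 0.95 for Il2rg with Il21r and 0.95 for Il4ra with Il21r, and 0.76 for the next pair, Il6st with Il12rb2. IL-4 and IL-21 receptors both pair their own chain with the common gamma chain. Il4ra and Il21r are also neighbours on chromosome 7, on the same strand with 23956 bases and 0 genes between them (NCBIM37, 132695785 to 132722986 and 132746943 to 132777084), whereas Il2rg lies on the X chromosome (98459717 to 98463594). The promoters of these 3 genes and of Il12rb2, the member with the widest range, are shown as the 250 bases before the start of transcription, from RefSeq on GRCm38.p6, on the strand of the gene and 5′ to 3′. Capitals mark matches on either strand to TTCNNNGAA (STAT), TGANTCA (AP-1), TGACGTCA (CRE), GGAAA (NFAT core), GCGTGGG (EGR core) and CCGGAA (ETS core).
Il2rg, chrX:101268256-101268505, - strand: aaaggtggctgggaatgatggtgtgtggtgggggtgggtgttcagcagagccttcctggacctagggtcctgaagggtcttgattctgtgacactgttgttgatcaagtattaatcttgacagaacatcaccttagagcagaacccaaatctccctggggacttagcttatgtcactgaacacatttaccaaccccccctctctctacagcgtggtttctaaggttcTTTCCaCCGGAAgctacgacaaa
Il4ra, chr7:125552021-125552270, + strand: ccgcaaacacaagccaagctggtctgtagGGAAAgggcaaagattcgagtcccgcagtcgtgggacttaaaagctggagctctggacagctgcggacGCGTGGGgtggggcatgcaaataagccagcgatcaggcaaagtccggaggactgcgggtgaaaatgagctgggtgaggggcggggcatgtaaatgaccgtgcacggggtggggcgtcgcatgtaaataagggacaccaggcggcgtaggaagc
Il21r, chr7:125603179-125603428, + strand: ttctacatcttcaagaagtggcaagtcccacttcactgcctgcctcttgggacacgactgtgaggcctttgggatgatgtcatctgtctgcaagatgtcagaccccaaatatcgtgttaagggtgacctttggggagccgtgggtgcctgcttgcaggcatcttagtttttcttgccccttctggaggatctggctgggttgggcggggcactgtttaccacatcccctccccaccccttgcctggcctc
Il12rb2, chr6:67376189-67376438, - strand: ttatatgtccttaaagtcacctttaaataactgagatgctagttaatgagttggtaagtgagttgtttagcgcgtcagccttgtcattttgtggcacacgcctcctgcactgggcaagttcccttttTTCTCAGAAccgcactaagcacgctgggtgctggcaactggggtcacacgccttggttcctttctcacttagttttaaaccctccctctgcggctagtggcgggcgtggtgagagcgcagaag

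None of the 6 motifs occurred in all of the 3 promoters that varied together. Il2rg held an NFAT core on the reverse strand from base -23 and an ETS core from base -17, Il4ra an NFAT core from base -221 and an EGR core from base -153, and Il21r no match. Il12rb2 held a STAT motif from base -123. RefSeq promoters of the same length held the STAT motif in 7.02% of 32851 cases, AP-1 in 6.75%, CRE in 1.55%, the NFAT core in 55.6%, the EGR core in 4.3% and the ETS core in 12%. NFAT and ETS cores overlap where they share the GGAA letters, and no 2 matches overlapped in these promoters. GC content was 49.2% for Il2rg, 59.6% for Il4ra, 55.6% for Il21r and 50% for Il12rb2, beside a median of 52.4% over all promoters. Promoters were also at hand for Il6ra, Il6st and Ifngr1, and not for Il2rb, Il10ra and Il12rb1.

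Il4ra, which binds IL-4, rose with both stimuli and was lower in tolerized than in naive cells after each. It stood at 2947, 3124 and 3050.4 in N0 and 2897, 3057 and 2519 in T0 (log2 fold change -0.11 ± 0.07, adjusted p = 0.333). Ag raised it to 7744, 7819 and 7638 in NAg (log2 fold change 1.35 ± 0.07, adjusted p = 2.87e-14) and 6321, 5457 and 5888 in TAg (log2 fold change 1.06 ± 0.07, adjusted p = 4.14e-12). PI raised it further, to 15277, 15108 and 14514 in NPI (log2 fold change 2.30 ± 0.08, adjusted p = 6.97e-18) and 12548, 11868 and 11962 in TPI (log2 fold change 2.1 ± 0.07, adjusted p = 1.55e-17), the largest PI responses among the members. Naive cells were above tolerized cells after both stimuli without overlap (log2 fold change -0.39 ± 0.07, adjusted p = 0.000122, and log2 fold change -0.30 ± 0.07, adjusted p = 0.00146), and of the neighbours in the order NPI, TPI, NAg, TAg, N0 and T0 only N0 and T0 overlapped. With marker scores TAg:NAg was not called (-0.34 ± 0.13, adjusted p = 0.0801). The difference in Ag response was the smallest of those called (-0.29 ± 0.10, adjusted p = 0.0467) and lost its call in 10 of 12 fits that left out 1 library, with -0.20 to -0.30 in those fits. It was also lost without the filter on low counts (adjusted p = 0.0641), with the groups compared alone (adjusted p = 0.0743), with marker scores (adjusted p = 0.0698) and with the Y-linked covariate (adjusted p = 0.0812). The difference in PI response was not called (-0.20 ± 0.10, adjusted p = 0.19). Il13ra1, its other partner chain, was at most 127 in any library.

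Il2rg was lower in T0 (1244 to 1304) than in N0 (1431 to 1669), without overlap (log2 fold change -0.31 ± 0.07, adjusted p = 0.00263). It rose with Ag to 2285 to 2576 in NAg (log2 fold change 0.64 ± 0.07, adjusted p = 1.38e-08) and 2216 to 2387 in TAg (log2 fold change 0.85 ± 0.07, adjusted p = 1.27e-10). With PI it rose to 3142 to 3433 in NPI (log2 fold change 1.07 ± 0.07, adjusted p = 3.07e-12) and 3734 to 4026 in TPI (log2 fold change 1.62 ± 0.07, adjusted p = 8.52e-16), and tolerized cells, lower at rest, were higher after PI (log2 fold change 0.24 ± 0.07, adjusted p = 0.00764). The fold change with PI was 1.47 times as high in tolerized as in naive cells (0.55 ± 0.10 on the log2 scale, adjusted p = 0.000229). Since Il2rg is X-linked, a covariate of the Y-linked transcripts was added, which left these values at -0.32 ± 0.09 in T0:N0, 1.06 ± 0.10 in NPI:N0 and 0.56 ± 0.11 for the difference in PI response. Sex differed in every library of NPI:N0, so the covariate rests there on T0 and TAg, the groups with both sexes. It assumes the same effect of sex in naive cells, which was not tested. Marker scores ended the call in T0:N0 (-0.50 ± 0.17, adjusted p = 0.239) and that in TPI:NPI (0.19 ± 0.08, adjusted p = 0.0758). In the annotation Il2rg shares 728 exonic bases with Gm20489 on the same strand, which had 2 reads in all libraries together beside 45456 of Il2rg.

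Il21r, which binds IL-21, did not differ between naive and tolerized cells by the test in any state, with log2 fold changes of 0.09 ± 0.08 at rest, -0.07 ± 0.08 after Ag and 0.15 ± 0.08 after PI (adjusted p = 0.432, 0.488 and 0.12). Both kinds of cells started from similar ranges, 1870.2 to 2114 in N0 and 1851 to 2291 in T0. Ag raised it to 3609.5 to 4195 in NAg (log2 fold change 1.01 ± 0.08, adjusted p = 2.1e-11) and 3653 to 3894 in TAg (log2 fold change 0.84 ± 0.08, adjusted p = 7.77e-10). PI raised it to 4512 to 4877 in NPI (log2 fold change 1.26 ± 0.08, adjusted p = 8.06e-13) and 5147 to 5354 in TPI (log2 fold change 1.32 ± 0.08, adjusted p = 1.82e-13). TPI lay above NPI without overlap, a difference that was called when these groups alone were fitted (0.17 ± 0.06, adjusted p = 0.0341). The ratio of Il21r to Il2rg per kilobase stayed between 1.04, in an N0 library, and 1.68, in an NAg library.

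Of the type II chains, Ifngr1 moved down with Ag and up with PI. It was at 1353, 1052 and 1077 in N0 and 2265, 2317 and 2045 in T0 (log2 fold change 0.93 ± 0.16, adjusted p = 0.00106), without overlap. Ag lowered it to 798, 718 and 449 in NAg (log2 fold change -0.83 ± 0.17, adjusted p = 0.000468) and to 499.8, 694 and 606 in TAg (log2 fold change -1.88 ± 0.17, adjusted p = 1.01e-07), so that both kinds of cells overlapped (log2 fold change -0.12 ± 0.17, adjusted p = 0.612) and the fall was larger in tolerized cells (-1.05 ± 0.24, adjusted p = 0.00497). PI raised it to 1978, 2099 and 2244 in NPI (log2 fold change 0.86 ± 0.16, adjusted p = 0.000284) and to 3774, 3836 and 3768 in TPI (log2 fold change 0.78 ± 0.16, adjusted p = 0.000472). A difference between the PI responses was not called (-0.08 ± 0.23, adjusted p = 0.859), and the gap seen at rest was again present after PI (log2 fold change 0.85 ± 0.16, adjusted p = 0.000598). The order of means was TPI, T0, NPI, N0, NAg and TAg, with overlap between T0 and NPI and between NAg and TAg. Without NAg replicate 3, which had the lowest count of NAg, TAg:NAg was called lower (-0.34 ± 0.12, adjusted p = 0.0309). With marker scores neither T0:N0 (0.49 ± 0.41, adjusted p = 0.77) nor TPI:T0 (1.40 ± 0.53, adjusted p = 0.0756) was called.

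Ifngr2, the second chain of the interferon-gamma receptor, which signals through Jak2, was lower in tolerized cells where Ifngr1 was higher. It fell from 611, 796 and 652 in N0 to 328, 303 and 208 in T0 (log2 fold change -1.29 ± 0.13, adjusted p = 3.02e-06). PI raised it to 2602, 2866 and 2973 in NPI (log2 fold change 2.04 ± 0.13, adjusted p = 4.69e-11) and only to 759, 913 and 853 in TPI (log2 fold change 1.58 ± 0.13, adjusted p = 2.58e-09), a gap of -1.74 ± 0.13, adjusted p = 2.94e-09. Ag lowered it to 217, 233 and 205 in NAg (log2 fold change -1.65 ± 0.14, adjusted p = 2.39e-09) and 207, 164 and 197 in TAg (log2 fold change -0.56 ± 0.15, adjusted p = 0.0026). The ratio of Ifngr1 to Ifngr2 per kilobase, which does not depend on library scaling, was 1.54 to 2.58 in N0 and 8.03 to 11.4 in T0, and 0.852 to 0.885 in NPI and 4.89 to 5.79 in TPI. It overlapped between NAg (2.55 to 4.28) and TAg (2.81 to 4.91). NPI was the only group in which Ifngr2 transcripts exceeded those of Ifngr1 in each library.

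Il10ra, the IL-10-binding chain, was higher in tolerized cells at rest and after PI. It was at 653, 456 and 493 in N0 and 1023, 1074 and 1307 in T0 (log2 fold change 1.09 ± 0.22, adjusted p = 0.00367), and at 495, 698 and 616 in NPI and 1399, 1088 and 1185 in TPI (log2 fold change 1.02 ± 0.22, adjusted p = 0.00206), without overlap in either pair. With marker scores in the model the difference at rest was gone (-0.06 ± 0.39, adjusted p = 0.992). Under that fit TPI:NPI was still called (0.75 ± 0.19, adjusted p = 0.00963), and TAg:NAg was at -0.45 ± 0.28 (adjusted p = 0.338). After Ag the counts were 1063, 584 and 624 in NAg and 979.8, 805 and 940.5 in TAg, which overlapped (log2 fold change 0.27 ± 0.22, adjusted p = 0.376). The overlap rested on NAg replicate 1, the library with the highest macrophage and monocyte sum of its group, without which the value was 0.60 ± 0.18 with an adjusted p of 0.0155. None of the 4 responses to a stimulus was called (0.50 ± 0.22, -0.32 ± 0.22, 0.17 ± 0.22 and 0.11 ± 0.21 in NAg:N0, TAg:T0, NPI:N0 and TPI:T0). In NAg:N0 the adjusted p was 0.0647. The value was called without N0 replicate 1 (0.62 ± 0.25, adjusted p = 0.0427), NAg replicate 2 (0.66 ± 0.23, adjusted p = 0.0243) or NAg replicate 3 (0.63 ± 0.25, adjusted p = 0.0407), with DESeq2 (0.55 ± 0.19, adjusted p = 0.0055) and with its size factors (0.55 ± 0.22, adjusted p = 0.0376), and was 0.17 ± 0.18 without NAg replicate 1. Fits of the compared groups alone called a fall in TAg:T0 (-0.36 ± 0.09, adjusted p = 0.00477), and marker scores a rise in NPI:N0 (0.90 ± 0.28, adjusted p = 0.0205) and in TPI:T0 (1.71 ± 0.52, adjusted p = 0.0267). Its partner Il10rb fell in all 4, by 0.80 to 1.16 on the log2 scale (-1.06 ± 0.12, adjusted p = 2.21e-08 in NAg:N0, and -0.80 ± 0.11, adjusted p = 8.22e-07 in TPI:T0). Il10, which encodes the ligand itself, had the largest positive value of the ligand genes between tolerized and naive cells after both stimuli, at 119.9, 82.2 and 45.1 in NAg and 3476, 3094 and 3719 in TAg (log2 fold change 5.39 ± 0.30, adjusted p = 2.16e-08), and 463, 582 and 535 in NPI and 22147, 12099.5 and 14645 in TPI (log2 fold change 4.95 ± 0.27, adjusted p = 1.04e-08).

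The kinases that the chains bind moved unevenly. Jak2, used by Ifngr2, Il12rb2 and gp130, rose with Ag from 2552, 2282 and 2596 in N0 to 30301, 33683 and 33179.8 in NAg (log2 fold change 3.71 ± 0.10, adjusted p = 6.6e-20) and from 2549, 2746 and 3254 in T0 to 29509, 31937 and 32495 in TAg (log2 fold change 3.46 ± 0.10, adjusted p = 3.56e-19). After PI it was 7139.8, 7819 and 7277 in NPI and 22801, 20268 and 18468 in TPI (log2 fold change 1.47 ± 0.09, adjusted p = 2.16e-11), whereas the difference after Ag was not called (-0.05 ± 0.09, adjusted p = 0.709). Jak3, the kinase of the common gamma chain, was higher in tolerized cells in every state (0.68 ± 0.09, adjusted p = 1.12e-05 in T0:N0, 0.62 ± 0.09, adjusted p = 6.19e-06 in TAg:NAg, and 1.08 ± 0.09, adjusted p = 2.02e-09 in TPI:NPI), whereas Il2rg was lower at rest. Jak1 fell with Ag (-0.75 ± 0.07, adjusted p = 2.39e-09 in NAg:N0, and -0.29 ± 0.07, adjusted p = 0.00143 in TAg:T0) and rose with PI (0.82 ± 0.07, adjusted p = 8.45e-10 in NPI:N0, and 0.57 ± 0.07, adjusted p = 2.58e-07 in TPI:T0). Tyk2, the kinase of Il12rb1, was called lower in each of the 4 responses, by 0.41 to 0.70 on the log2 scale.

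Of 33 other receptor chains on a list of the pathway, 31 passed the filter. In T0:N0, 11 of them were called higher and 1, Ifngr2, lower, beside 8.42% and 12% of all tested genes. In TAg:NAg, 14 were called higher, beside 20.9%, and the other 17 were not called. In TPI:NPI 10 were called higher and 1, again Ifngr2, lower, beside 18.2% and 19.7%. Ag was followed by 12 higher and 10 lower of the 31 in naive cells, beside 32.1% and 33.4% of all tested genes, and by 9 and 9 in tolerized cells, beside 29.9% and 29.8%, shares close to those over all genes. PI was followed by 14 and 8 in naive cells, beside 28.6% and 32.7%, and by 14 and 9 in tolerized cells, beside 32% and 36.3%. Il2ra had the largest rise after Ag in both kinds of cells and Il1r2, a decoy receptor for IL-1, the largest after PI (5.18 ± 0.52, adjusted p = 1.2e-06 in NPI:N0, and 5.93 ± 0.45, adjusted p = 4.91e-08 in TPI:T0). Il9r had the largest fall after Ag (-1.93 ± 0.39, adjusted p = 0.000271 in NAg:N0, and -2.43 ± 0.42, adjusted p = 5.11e-05 in TAg:T0). Epor, the erythropoietin receptor, had the largest positive value in T0:N0 at raw counts of 2, 1 and 3 in N0 and 38, 9 and 20 in T0, where the erythroid marker sum was also higher, and the part of these cells was not tested.

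The 11 STAT and feedback genes were called higher in 9 cases and lower in 2 in NAg:N0, and in 9 and 1 in TAg:T0, beside the shares of all tested genes just given for these comparisons. Cish, a feedback inhibitor induced by STAT5, had the largest rise in both (4.97 ± 0.18, adjusted p = 7.1e-13 in NAg:N0, and 3.78 ± 0.17, adjusted p = 1.68e-11 in TAg:T0), and Stat4, which acts downstream of the IL-12 receptor, the largest fall (-0.83 ± 0.12, adjusted p = 6.69e-06, and -1.90 ± 0.13, adjusted p = 9.79e-11). Between tolerized and naive cells, 4 of these genes were called higher and 6 lower after Ag, beside 20.9% and 18.5% of all tested genes, and 8 higher and 2 lower after PI, beside 18.2% and 19.7%. Socs1, an inhibitor of Janus kinases, had the lowest value after Ag (log2 fold change -1.07 ± 0.10, adjusted p = 6.97e-08) and Socs2 the highest after PI (log2 fold change 1.98 ± 0.18, adjusted p = 7.34e-09). At rest 3 were called higher and 1 lower, beside 8.42% and 12% of all tested genes. Of 19 ligand genes, 17 were tested, of which 15 were called higher in NAg:N0, beside 32.1% of all tested genes, 9 in TAg:T0, beside 29.9%, 12 in NPI:N0, beside 28.6%, and 12 in TPI:T0, beside 32%. Il15 and Osm were called lower in TPI:T0 (-2.1 ± 0.51 and -0.38 ± 0.14), beside 36.3% of all tested genes, the only ligand calls in that direction among these 4 responses, and Osm is named here after its values were seen. Lif, whose protein signals through gp130, had the largest rise in TAg:T0, NPI:N0 and TPI:T0, from 9.4 to 14.9 in N0 and 9.73 to 15 in T0 to 3756 to 6496 in TAg, 17879 to 20224 in NPI and 26566 to 28044 in TPI.

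For 9 of the members the tested gene outside the set whose log2 normalized counts correlated best with it over the 18 libraries was found, as a description. Il4ra was most like Tnf (Pearson's r = 0.993), Il21r like Cd274 (0.990), Il6st like AU019823 (0.986), Ifngr1 like Aim2 (0.976) and Il2rb like Chsy1 (0.970). For Il6ra it was Rev3l (0.968), for Il12rb2 Aebp1 (0.957), for Il12rb1 D17H6S56E-5 (0.946) and for Il10ra Fam129a (0.931). The libraries fall into 6 groups, so these values mostly compare group patterns. Leaving out any 1 library kept r at 0.927 or above for Il10ra, the lowest of these 9.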

How the data were processed

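RNA-seq libraries of CD4+ T cells, 3 per group in 6 groups, were analysed from the raw read counts per gene that the authors deposited, made per the labels and the study's methods with TopHat2 2.1.1 on mm9 (NCBIM37) and HTSeq 0.9.1 after ribosomal RNA depletion. Strand and counting mode are not given in the sources used here, so reads of overlapping genes may be shared. Totals ranged from 10758571 to 24119489 counts per library.

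Counts were tested with edgeR 4.0.16 in R 4.3.3 (TMM, robust quasi-likelihood fit, 1 model of all 18 libraries) over the 17240 genes whose normalized counts averaged 3 or more in any group. Genes with a Benjamini-Hochberg adjusted p under 0.05 were called, and SE is the absolute log2 fold change divided by the root of F. The scripts were tested on simulated counts. The p-values rest on the spread between libraries of the same group, estimated over all 6 groups and with information from other genes. They cover no other source of error. Correlations used log2(normalized count + 1).

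Alternatives were DESeq2 1.42.0, its size factors in edgeR, no filter, only the groups compared, the study's limits on fold and level, a replicate block, marker scores, a Y-linked covariate, and each library left out. All 10 members are named. Other pathway genes are named where they are a partner chain or kinase of a member, or had the largest or smallest log2 fold change of their list. The members and lists were chosen with earlier results of these data known. Promoters came from RefSeq (GRCm38.p6) and matched 7 of 10 members by symbol. The gene most like Il2rg is not reported here.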

Additional observations from a re-analysis of the deposited data

Results flagged for a closer look

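The response to a stimulus, or the gap between tolerized and naive cells, differed by the interaction test of edgeR for 7 of the 10 receptor chains. That count takes a call for Ag, for PI or for the gap, and the matching share of all tested genes was not computed. Taken one by one, 14.6% of all tested genes were called higher and 7.09% lower for Ag. The shares were 12.7% and 7.52% for PI, and 17.2% and 20% for the gap. For Ag the log2 response of tolerized minus naive cells was -1.69 for Il2rb, -1.54 for Il12rb1, -1.05 for Ifngr1, -0.72 for Il6st and -0.29 for Il4ra. For PI it was 1.14 for Il6st, 0.55 for Il2rg and -0.92 for Il12rb1. The gap after PI minus that after Ag was 1.86 for Il6st, 1.61 for Il2rb, 0.97 for Ifngr1, 0.62 for Il12rb1, 0.34 for Il2rg and -1.14 for Il12rb2. Il6st was the member with called differences of opposite sign for Ag and PI. The part of other cells, of the culture and of the sex of the mice in these values was not tested beyond the covariate fits.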

How the results depend on the processing

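All 64 called values kept direction and call with DESeq2 and with DESeq2 size factors in edgeR, and TMM and DESeq2 scaling differed by at most 0.054 (log2). With the study's limits on fold and level, 3 members were called in T0:N0, 1 in TAg:NAg, 3 in TPI:NPI, 4 in TAg:T0, 3 in the difference in Ag response, 1 in that in PI response and 3 in the gap after PI against Ag. The rule that needs both tools gave 3, 1, 3, 4, 3 and 1 in the first 6 of these. Counts in NAg:N0, NPI:N0 and TPI:T0 changed by a smaller factor under these limits and are not given. The matching shares of all tested genes at these limits were not computed. With marker scores, 49 of 64 called values were kept, and 1 member was called in T0:N0 and 1 in TAg:NAg.

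Without 1 library, counts ranged from 5 to 7 in T0:N0, 3 to 4 in TAg:NAg, 9 to 10 in NAg:N0, 8 to 9 in TAg:T0, 4 to 5 in the Ag interaction, 3 to 5 in the PI interaction (5 without T0 replicate 3) and 5 to 8 in the gap, and were 7 in TPI:NPI, 7 in NPI:N0 and 8 in TPI:T0. Of 468 such fits of called values, 443 kept the call and 25 lost it.

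1 called value changed sign, Il10ra in T0:N0 with marker scores (-0.06). The other reversals were of values not called. With marker scores these were Il6st in T0:N0 (0.31), Il10ra in TAg:NAg (-0.45), Il12rb2 in TPI:NPI (0.04), Il6st in NPI:N0 (-0.13), and, for the PI interaction, Il2rb (0.32), Il10ra (0.81) and Ifngr1 (0.25). With only the groups compared they were Il6st in T0:N0 (0.06), Il6ra in NPI:N0 (0.04) and Il21r in the PI interaction (-0.03). With the Y-linked covariate they were Il6ra in NPI:N0 (0.10) and Il12rb2 in the Ag interaction (-0.02), and with DESeq2 or its size factors Il6ra in NPI:N0 (0.03 in both). The cause was not tested. Without 1 library, values that crossed 0 ranged as given here. They were Il6st in T0:N0 from -0.06 to 0.02, Il2rb in TAg:NAg from -0.17 to 0.12, Ifngr1 in TAg:NAg from -0.34 to 0.05, Il6ra in TPI:NPI from -0.01 to 0.03, Il12rb2 in TPI:NPI from -0.13 to 0.15, Il6ra in NPI:N0 from -0.11 to 0.02. They were also Il6st in NPI:N0 from -0.01 to 0.13, Il6ra in the Ag interaction from -0.02 to 0.18, Il12rb2 in the Ag interaction from -0.03 to 0.44, Il2rb in the PI interaction from -0.45 to 0.22, Il10ra in the PI interaction from -0.22 to 0.07, Il21r in the PI interaction from -0.00 to 0.15, Ifngr1 in the PI interaction from -0.19 to 0.00.

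Same-numbered libraries did not deviate together (median r -0.02 over 45 pairs, -0.20 to 0.11, and 0.01 over pairs of different number). A replicate block changed no called value, added 1 call and gave counts of 7 in T0:N0, 3 in TAg:NAg, 7 in TPI:NPI, 9 in NAg:N0, 9 in TAg:T0, 7 in NPI:N0, 8 in TPI:T0, 5 in the Ag interaction, 4 in the PI interaction, 6 in the gap. Arms left with 2 libraries share the spread of all groups.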
